A study of Mus musculus with 12 samples.

Results

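NF-kappaB signalling and its feedback control were followed through 40 listed genes that encode the subunits of the factor, its inhibitors, the kinases and adaptors upstream, the enzymes that switch the pathway off, and some of its target genes. A gene entered when the array held a probe set annotated to it alone, and its probe set of highest mean signal stood for it. On that rule 35 of the 40 genes, with 83 probe sets among them, were measured, out of 18193 genes on the array. Nfkb1, Tnip3, Chuk, Traf3 and Ripk2 were not analysed here. All 35 passed the filter on low values (a signal above the array median on 2 or more of the 12 arrays), which 12429 genes passed.

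The study asked how retinoic acid and a blocker of one of its receptors change bone marrow dendritic cells, with and without a bacterial stimulus. Every culture was started from bone marrow of mice aged 6 to 8 weeks and kept in GM-CSF, the growth factor that drives marrow cells towards dendritic cells, at 20 ng/ml for 10 days. The 6 conditions were no retinoid, all-trans-retinoic acid (RA) at 10 nmol/ml, and Ro41-5253 (Ro, an antagonist of retinoic acid receptor alpha) at 100 nmol/ml, each without LPS and with LPS at 1 ug/ml. The treatment protocol gives the retinoid doses per ml, whereas the series' design text gives only nmol. LPS, lipopolysaccharide from the wall of Gram-negative bacteria, binds Toll-like receptor 4, and the length of exposure to it is not given in the sources used here. Each condition was measured on 1 BALB/c array (replicate 1) and 1 BL6 array (replicate 2). Strain and replicate number therefore cannot be told apart. Whether the cultures of a strain were grown from separate animals is not stated. No condition has 2 arrays of 1 strain, so each p-value rests on how far differences between conditions varied between the strains. In comparisons averaged over conditions, that spread also takes in differences of the retinoid effect between LPS states. How much of it is technical cannot be told.

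NF-kappaB is a family of dimeric transcription factors that wait in the cytoplasm bound to inhibitor proteins of the IkappaB family. In the classical arm, signals from Toll-like or tumour necrosis factor receptors pass through adaptors to the IkappaB kinase complex, the inhibitor is destroyed, and dimers that hold Rela or Rel enter the nucleus. In the alternative arm the kinase made from Map3k14 (NIK) leads to processing of the Nfkb2 product and release of dimers with Relb. Many of the genes switched on encode the pathway's own brakes, among them Nfkbia, Tnfaip3 and Tnip1, and in dendritic cells the pathway is known for driving maturation after microbial contact.

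The promoters of 5 members are shown because the letters of the factor's own binding sequence lie in them and because all 5 genes moved with LPS and between the RA and Ro cultures, as described further on. The 250 bases before the start site were taken from RefSeq on mouse build GRCm38.p6, and capitals mark each stretch that matched the kappaB consensus, a decamer searched on both strands with overlapping matches joined. The stretches lie at chr19:46304487-46304736 on the plus strand (Nfkb2), and on the minus strand at chr11:23770970-23771219 (Rel), chr12:55492648-55492897 (Nfkbia), chr10:19015411-19015660 (Tnfaip3) and chr11:54962941-54963190 (Tnip1).
Nfkb2: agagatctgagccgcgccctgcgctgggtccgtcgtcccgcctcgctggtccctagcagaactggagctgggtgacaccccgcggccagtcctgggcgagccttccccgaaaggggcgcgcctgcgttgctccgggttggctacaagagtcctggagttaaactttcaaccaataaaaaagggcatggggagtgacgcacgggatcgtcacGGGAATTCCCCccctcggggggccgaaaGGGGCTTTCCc
Rel: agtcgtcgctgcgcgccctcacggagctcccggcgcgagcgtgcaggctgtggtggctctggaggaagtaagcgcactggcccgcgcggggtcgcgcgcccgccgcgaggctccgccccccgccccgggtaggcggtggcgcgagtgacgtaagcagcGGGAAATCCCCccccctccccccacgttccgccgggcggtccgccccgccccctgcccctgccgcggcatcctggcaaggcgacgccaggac
Nfkbia: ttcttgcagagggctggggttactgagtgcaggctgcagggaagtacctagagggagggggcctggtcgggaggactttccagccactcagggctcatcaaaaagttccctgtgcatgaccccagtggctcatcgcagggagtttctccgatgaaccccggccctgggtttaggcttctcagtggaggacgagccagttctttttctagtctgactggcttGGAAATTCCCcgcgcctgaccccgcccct
Tnfaip3: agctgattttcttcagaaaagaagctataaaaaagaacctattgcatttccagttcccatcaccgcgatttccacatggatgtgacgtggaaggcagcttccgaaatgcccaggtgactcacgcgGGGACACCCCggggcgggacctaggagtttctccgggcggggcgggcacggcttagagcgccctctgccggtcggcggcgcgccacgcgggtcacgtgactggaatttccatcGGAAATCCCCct
Tnip1: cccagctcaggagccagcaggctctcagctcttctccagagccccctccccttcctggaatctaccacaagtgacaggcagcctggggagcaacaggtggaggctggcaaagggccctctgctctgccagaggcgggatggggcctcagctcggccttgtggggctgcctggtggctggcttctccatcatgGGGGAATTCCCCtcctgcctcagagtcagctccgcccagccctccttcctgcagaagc
In Nfkb2, which has 3 starts in the table, the matches ended 2 and 29 bases before the start shown. In Tnfaip3, which has 2 starts, they ended 3 and 116 bases before it. The single stretches of Nfkbia, Tnip1 and Rel ended 20, 47 and 82 bases before the start. Of the 31 measured members with an entry in the table, 13 (41.9%) held a match, against 2225 of 27025 genes (8.23%) with a window of the same length. A match is a run of letters and not a measured binding site. The other 8 members with a match were Nfkbie, Nfkbid, Tnfaip2, Tank, Cyld, Ier3, Sod2 and Bcl10. Relb, Nfkbiz, Ikbkb and Malt1 were not among the 31.

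The signals are linear array intensities as deposited, with array medians between 21.4 and 41.8, and no group mean of a member lay below the highest of these. Log2 values below are differences in log2(signal + 16), given relative to the median difference of the 12429 genes in that comparison and followed by the model's standard error, and a fold is computed from that relative value. A gene is said to have risen or fallen, or to be higher or lower, where the limma test at the deposited scaling gave a Benjamini-Hochberg adjusted p under 0.05 over all 12429 genes. That test is on the difference before the median is subtracted. An adjusted p therefore does not test the relative value printed beside it, and the tested difference can have the other sign. The median gene itself moved by -0.41 with LPS, 0.23 with Ro and -0.21 between RA and Ro cultures, so counts of all genes are also given after quantile normalization, which removes such shifts. Of 15 dendritic cell markers, 14 were measured above the filter and Clec9a was not, while of 8 T and NK cell markers only Cd8a passed and the Cd3 genes did not. RNA was taken from whole cultures, in which fewer cells of a type and less RNA per cell cannot be told apart. Summed signals of markers, given below, are unweighted, so genes of high signal weigh most in them, such as Cd74 among the dendritic cell markers.

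LPS raised most of the pathway. Against cultures without LPS, averaged over the retinoid conditions (6 arrays against 6), 25 of the 35 members rose and 3 fell, where 11% of all genes rose and 47.9% fell. The median member changed by 1.50 on the log2 scale relative to the median gene. The largest rises were those of Nfkbiz (3.46 ± 0.18, 11.0-fold), Tnfaip3 (3.35 ± 0.23, 10.2-fold), Gadd45b (3.32 ± 0.29, 10.0-fold) and Traf1 (3.30 ± 0.35, 9.83-fold). After quantile normalization 29 members rose and 2 fell, where 24.3% of all genes rose and 29% fell. All 25 rises at the deposited scaling were among those 29. After median centring, for which the shares of all genes are not given here, 31 members rose and 0 fell.

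**Figure D1:**
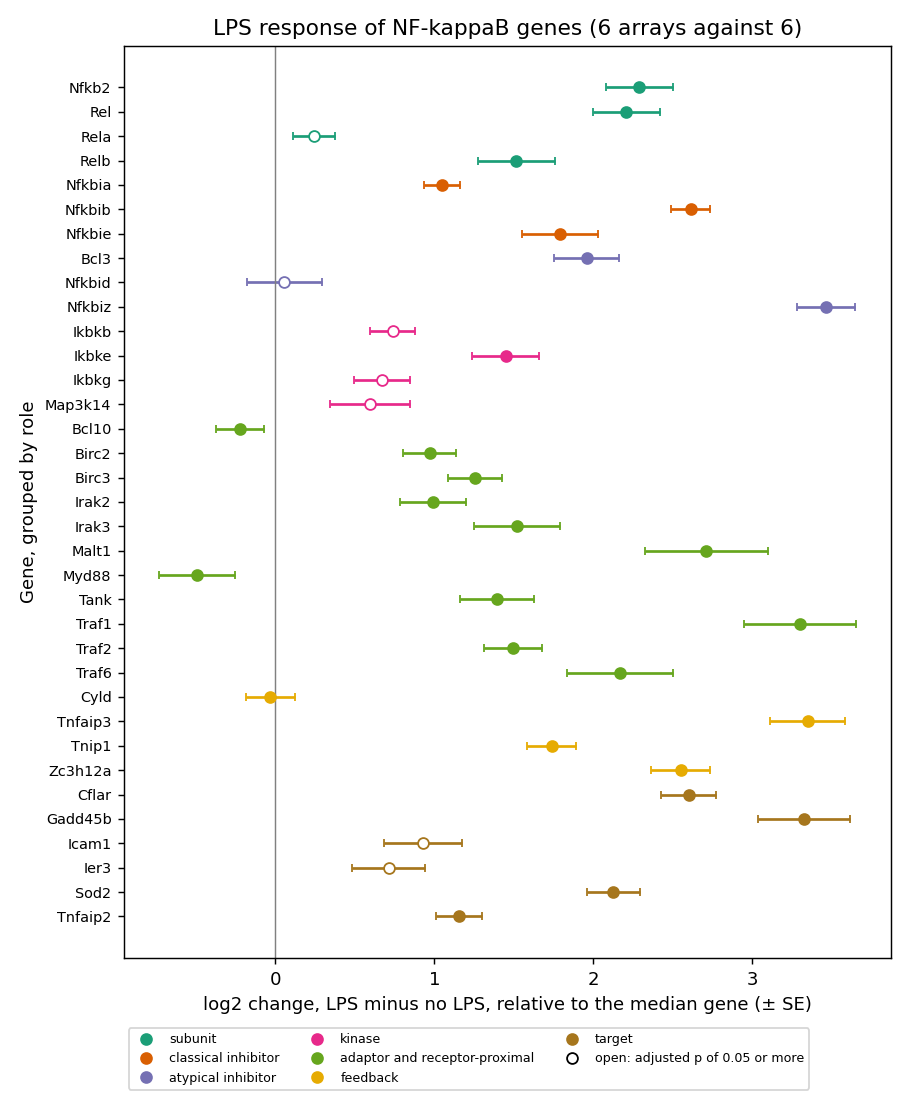
Log2 change with LPS of the 35 members, relative to the median gene (horizontal axis), by role (vertical axis and colours); points are model estimates with bars of 1 standard error from 6 arrays with and 6 without LPS, and open points did not pass the threshold. Most filled points lie to the right of 1, and Bcl10, Myd88 and Cyld, which fell at the deposited scaling, lie left of 0, Cyld at -0.03.

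Among the subunits, Nfkb2, Rel and Relb rose and Rela did not pass. The 6 arrays without LPS gave Nfkb2 signals from 217 (median 512) to 1127 and those with LPS from 1164 (median 2031) to 2207. The groups did not overlap at that probe set, and the change was 2.29 ± 0.21 (adjusted p = 1.46e-05). A second Nfkb2 probe set, of mean signal 223, gave 0.23 at the deposited scaling against 1.88 for the one used. It read 73.0 to 351 without LPS and 175 to 352 with it, so that the groups overlapped there. Rel, the c-Rel subunit, ran from 74.1 (median 185) to 431 without LPS and from 225 (median 748) to 964 with it, a rise of 2.21 ± 0.21 (adjusted p = 2.11e-05) in which, of the LPS arrays, only that of BL6 with RA overlapped the others. Relb overlapped more, at 169 to 1498 (median 724) against 531 to 2561 (median 1298), and rose by 1.52 ± 0.24. Rela, the classical partner, read 1036 to 2156 without LPS and 996 to 1780 with it. Its relative change was 0.25 ± 0.13, and at the deposited scaling it changed by -0.17 (adjusted p = 0.30).

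All 3 classical inhibitors rose. Nfkbib, which encodes IkappaB-beta, went from between 532 and 1159 (median 750) to between 2670 and 4516 (median 4021), a change of 2.61 ± 0.12 (adjusted p = 1.24e-07). Nfkbie, IkappaB-epsilon, rose by 1.79 ± 0.24, with 260 to 2482 (median 952) against 1510 to 3234 (median 2531). Nfkbia, IkappaB-alpha, the inhibitor best known for being destroyed and remade within one response, read 6480 to 12037 (median 9134) against 13145 to 14225 (median 13919), with no overlap, and rose by 1.05 ± 0.11 (adjusted p = 4.4e-04). Its 4 other probe sets, of lower signal, gave differences of 1.32 to 1.55 at the deposited scaling, against 0.64 for the one used.

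The nuclear, atypical IkappaB proteins split. Nfkbiz, which acts as a cofactor for secondary response genes, read 82.7 to 267 (median 176) without LPS and 1235 to 1663 (median 1479) with it, the largest relative change of the 35. Bcl3, a coactivator or corepressor of p50 and p52 dimers, read 186 to 420 (median 331) against 463 to 1331 (median 1065) and rose by 1.96 ± 0.20. Nfkbid did not pass over the 6 pairs (0.06 ± 0.24, adjusted p = 0.22), and its values by retinoid are given below.

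Of the kinases only Ikbke passed, with 1.45 ± 0.21 (adjusted p = 0.0011). Ikbke encodes an IkappaB kinase related enzyme that also acts in interferon induction, and it read 246 to 2020 (median 1093) without LPS and 969 to 3111 (median 1926) with it. Ikbkb, the catalytic subunit of the IkappaB kinase complex, Ikbkg, its scaffold NEMO, and Map3k14 had relative changes of 0.74, 0.67 and 0.60. All 3 passed after quantile normalization.

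Of the 11 adaptors and receptor-proximal genes, 9 rose and 2 fell. Traf1, an adaptor that joins TNF receptor family members to other TRAF proteins, read 36.9 to 1172 (median 371) without LPS and 1473 to 4185 (median 2003) with it (adjusted p = 2.7e-05). Malt1, the paracaspase that cleaves pathway inhibitors, rose by 2.71 ± 0.39 and Traf6, the ubiquitin ligase downstream of Toll-like receptors, by 2.17 ± 0.33. For both, the groups did not overlap at the probe set used. Another Traf6 probe set, of mean signal 176, read 106 to 267 without LPS and 105 to 316 with it, so that the groups overlapped there. Traf2 (1.50), Irak3 (1.52), Tank (1.39), Birc3 (1.25), Irak2 (0.99) and Birc2 (0.97) rose by less, and Irak2 lost its call when any of 8 arrays was left out (adjusted p up to 0.080). Myd88, the adaptor of most Toll-like receptors, read 1245 to 2333 (median 1736) without LPS and 460 to 1323 (median 1062) with it, and was lower at the deposited scaling by -0.49 ± 0.24 relative to the median gene. Bcl10, the partner of Malt1, was lower by -0.22 ± 0.15. Neither was called lower after median centring (adjusted p up to 0.23 and 0.45 over the alternatives).

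Of the 4 feedback genes 3 rose. Tnfaip3, the ubiquitin-editing enzyme A20, read 232 to 795 (median 593) without LPS and 3453 to 4220 (median 3844) with it. At this probe set its 6 LPS arrays lay within a narrow band whatever the retinoid. A second Tnfaip3 probe set, of mean signal 365, read 274 to 1095 with LPS and did not show that band. Its LPS difference was 2.96 at the deposited scaling, against 2.94 for the one used. Zc3h12a, the RNase Regnase-1, rose by 2.55 ± 0.18 and Tnip1, the A20 partner ABIN-1, by 1.74 ± 0.16. Cyld, a deubiquitinase of the pathway, passed as lower at the deposited scaling (adjusted p = 0.025), yet its change relative to the median gene was -0.03 ± 0.15 and it did not pass after quantile normalization.

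Targets rose in 4 of 6 cases. Gadd45b, a stress response and survival gene, read 426 to 2898 (median 1084) against 5225 to 9875 (median 8521). Cflar, the caspase-8 inhibitor, rose by 2.60 ± 0.17, Sod2, the mitochondrial superoxide dismutase, by 2.13 ± 0.17 and Tnfaip2 by 1.16 ± 0.14. Icam1, an adhesion molecule, and Ier3 had 0.93 ± 0.25 and 0.71 ± 0.23 and did not pass. Granulocyte markers moved with LPS too, 9 of 10 measured being lower and 1 higher, with summed signals of 11508 to 56260 without LPS and 475 to 5541 with it. Of 14 dendritic cell markers, 3 were higher and 6 lower, with sums of 37818 to 62231 against 36101 to 69433. Of 14 macrophage and monocyte markers, 2 were higher and 8 lower, with sums of 60834 to 88679 against 18375 to 72429. Of 3 B cell markers above the filter 1 was lower, with sums of 782 to 1691 against 55.7 to 185. Of 4 mast cell and basophil markers 3 were lower. Of all genes, 11% rose and 47.9% fell in that comparison. The counts alone therefore do not set the dendritic cell, the macrophage and monocyte or the B cell markers apart from all genes. The part of these markers in the LPS response of the pathway genes was not tested.

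The response was present in each retinoid condition, with 2 arrays against 2. Without retinoid 19 members rose and 3 fell (8.05% and 37.7% of all genes), in RA cultures 24 rose and none fell (6.55% and 28.6%), and in Ro cultures 15 rose and none fell (6% and 24%). After quantile normalization the members counted 24 and 2, 29 and 0, and 25 and 0, with 16.3% and 22.1%, 12.5% and 16.9%, and 12.2% and 15.5% of all genes. The median member changed by 1.41, 1.89 and 1.03. Traf1 showed the spread: it rose by 2.90 ± 0.29 without retinoid, by 4.81 ± 0.29 in RA cultures and by 2.22 ± 0.29 in Ro cultures. Tnfaip3 rose by 3.23 ± 0.21, 4.30 ± 0.21 and 2.55 ± 0.21 in the same order. The difference between the RA and no-retinoid responses was tested as an interaction and passed for none of the 35 members and 0% of all genes (limma, 707 genes and 10 members at an unadjusted p under 0.05). Its values were 1.91 ± 0.41 for Traf1 (adjusted p = 0.49) and 1.07 ± 0.30 for Tnfaip3 (adjusted p = 0.77).

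**Figure D2:**
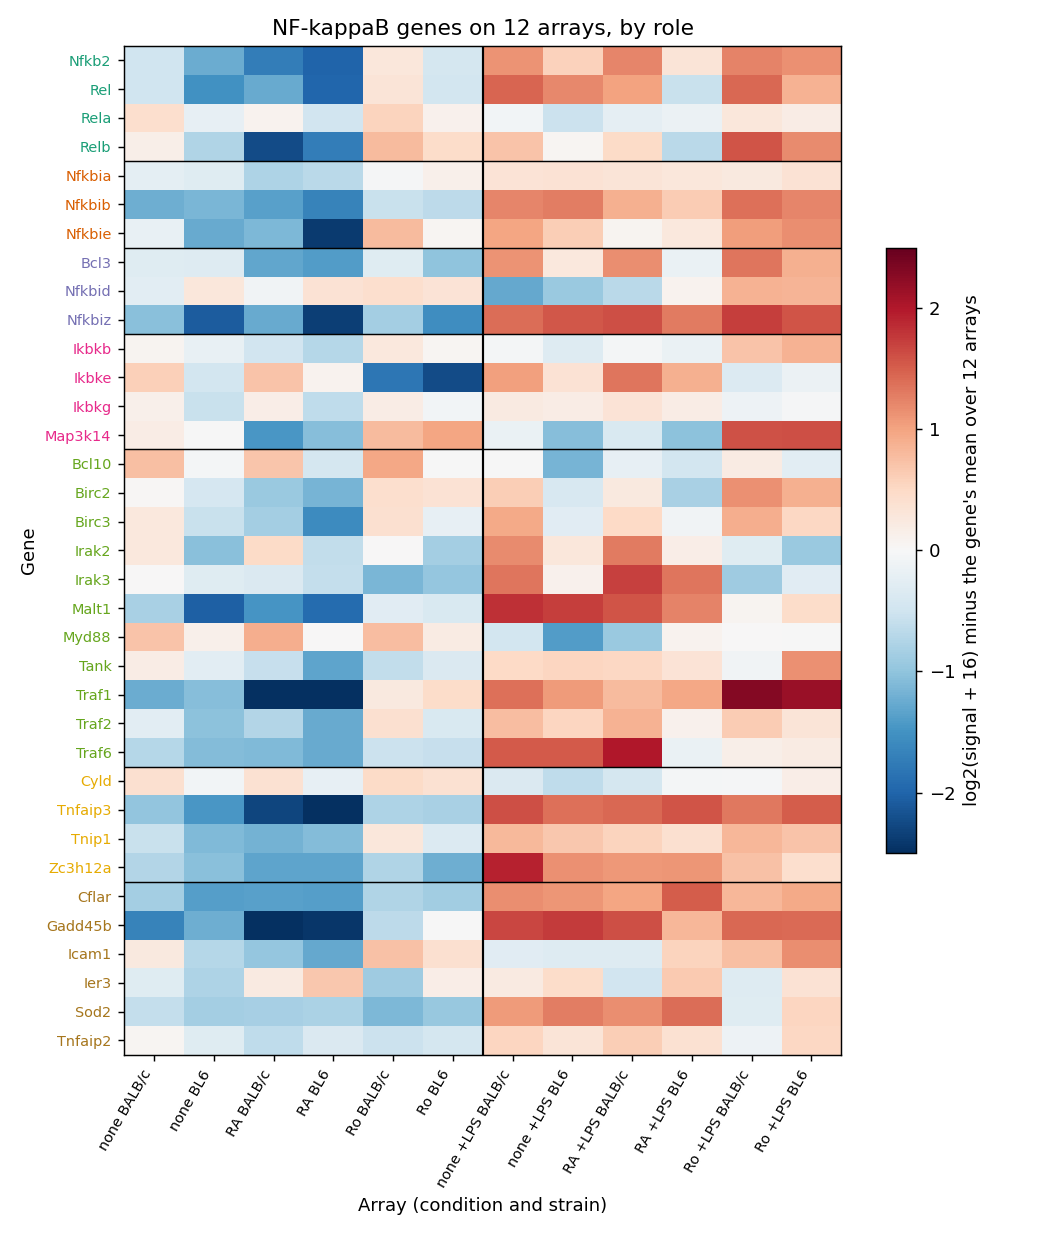
Each row is a member, grouped by role, and each column an array, with conditions without LPS left of the black line; colour is log2(signal + 16) minus the gene's mean over the 12 arrays (scale from -2.5 to 2.5). Most rows turn from blue to red across the line, many rows are bluest in the RA columns without LPS, and Ikbke, Irak2, Irak3 and Malt1 depart from the other rows in the Ro columns.

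Without LPS, the pathway genes differed most between RA and Ro cultures. Of the 35 members, 17 were lower and 1 was higher in RA than in Ro cultures (2 arrays against 2), where 5.08% of all genes were lower and 2.62% higher. After quantile normalization the counts were 16 lower and 1 higher, against 4.29% and 4.48%. The median member differed by -0.50. The RA dose was 10 and the Ro dose 100 nmol/ml, so these are values of the labelled cultures and not of matched doses. In 16 of these 18 members, all but Malt1 and Tnip1, the culture without retinoid lay between the RA and the Ro culture in both strains. The 18 were picked for a difference between those same RA and Ro arrays, which favours such an order in advance. The share among all genes was not computed, so no conclusion is drawn from this count. RA against no retinoid passed for Traf1 alone (0.145% of all genes), for 3 members after quantile normalization (0.225%), and Ro against no retinoid for Traf1 and Ikbke.

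In what follows, signals are given in the order no retinoid, RA and Ro. Traf1 read 346, 36.9 and 997 in BALB/c and 397, 88.5 and 1172 in BL6 without LPS, and the BALB/c RA value was below the highest array median. Both RA arrays were lowest and both Ro arrays highest. The RA minus Ro difference was -3.68 ± 0.29 (12.8-fold lower in RA, adjusted p = 9.97e-05), with RA minus no retinoid at -2.35 ± 0.29 (adjusted p = 0.0141) and Ro minus no retinoid at 1.34 ± 0.29 (adjusted p = 0.021). Each of the latter comparisons lost the call when certain arrays were left out (3 arrays for RA, 4 for Ro, adjusted p up to 0.11 and 0.17), while RA against Ro kept it without any of the 12. With LPS the signals were 2222, 1473 and 4185 in BALB/c and 1783, 1657 and 3824 in BL6, with both Ro arrays above the other 4, and RA minus Ro was -1.14 ± 0.29 (adjusted p = 0.0096, or 0.084 without the BALB/c Ro array with LPS).

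The subunits and the kinase of the alternative arm had the same order. Relb read 948, 169 and 1498 in BALB/c and 499, 247 and 1181 in BL6 without LPS, with RA lowest and Ro highest in both strains. RA minus Ro was -2.41 ± 0.34 (5.31-fold lower, adjusted p = 9.5e-04). With LPS it read 1406, 1191 and 2561, and 882, 531 and 1967, and the difference was -1.27 ± 0.34 (adjusted p = 0.0136), lost when any of 3 of the 4 arrays compared was left out. Nfkb2 read 644, 268 and 1127 in BALB/c and 381, 217 and 674 in BL6, again with RA lowest and Ro highest, a difference of -1.58 ± 0.24 (adjusted p = 0.00114). With LPS its values, 2020, 2174 and 2207 in BALB/c and 1382, 1164 and 2041 in BL6, overlapped and did not pass. Map3k14 read 509, 152 and 786 in BALB/c and 445, 205 and 892 in BL6, with a difference of -1.95 ± 0.32 (3.85-fold lower, adjusted p = 0.00203). With LPS it read 394, 339 and 1380, and 205, 210 and 1385, so that RA and no-retinoid arrays overlapped and both Ro arrays stood above the other 4 (RA minus Ro -2.10 ± 0.32, adjusted p = 9.3e-04, and Ro minus no retinoid 1.93 ± 0.32, adjusted p = 0.00145). Its second probe set gave RA minus Ro -1.86 without LPS and Ro minus no retinoid 2.36 with LPS at the deposited scaling, against -2.15 and 2.22 for the one used.

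Rel read 237, 132 and 431 in BALB/c and 109, 74.1 and 245 in BL6 without LPS, RA lowest in both, with a difference of -1.36 ± 0.31 (adjusted p = 0.009) that was lost without any of the 4 arrays compared. With LPS it read 964, 697 and 946, and 799, 225 and 635. The classical inhibitors were lower in RA as well. Nfkbie read 1259, 646 and 2482 in BALB/c and 591, 260 and 1493 in BL6, and RA minus Ro was -1.98 ± 0.34 (3.95-fold lower, adjusted p = 0.00268). With LPS it read 2856, 1510 and 2958, and 2206, 1720 and 3234, lowest in RA in both strains but not past the threshold (-0.73 ± 0.34). Nfkbia read 9321, 6480 and 10812, and 8948, 6904 and 12037, with a difference of -0.57 ± 0.12 (adjusted p = 0.00219), and its other 4 probe sets gave -1.23 to -1.60 at the deposited scaling against -0.77 for the one used. The Nfkbia call was lost after median centring and without the intensity trend of the model (adjusted p up to 0.22). Nfkbib read 731, 667 and 1159, and 769, 532 and 1090, a difference of -0.70 ± 0.19. With LPS Nfkbia lay between 13145 and 14225 on all 6 arrays, and Nfkbib at 4009, 3192 and 4516, and 4180, 2670 and 4033.

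Feedback genes followed in part. Tnfaip3 read 690, 268 and 795 in BALB/c and 496, 232 and 778 in BL6, with RA lowest in both strains and RA minus Ro at -1.40 ± 0.21 (2.63-fold lower, adjusted p = 0.00114). Tnip1 read 1729, 1115 and 3071, and 1177, 1186 and 1998, with Ro highest in both and a difference of -0.90 ± 0.20. With LPS neither passed, at 4220, 3734 and 3453, and 3601, 4122 and 3954 for Tnfaip3 and 4457, 3758 and 4492, and 4040, 3344 and 4181 for Tnip1. Zc3h12a and Cyld did not pass without LPS. Among the targets, Gadd45b read 916, 426 and 1849, and 1252, 531 and 2898, a difference of -2.04 ± 0.28 (4.12-fold lower, adjusted p = 8.6e-04), and Icam1 read 2300, 986 and 3233, and 1169, 788 and 2564, a difference of -1.49 ± 0.35 (adjusted p = 0.0128). With LPS Gadd45b read 9415, 9041 and 8002, and 9875, 5225 and 7889, and the groups overlapped.

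Among the remaining adaptors, the ubiquitin ligases Birc2 and Birc3, which lie next to each other on chromosome 9 with 0 protein-coding genes between, were both lower in RA. Birc2 read 657, 331 and 861, and 473, 279 and 831, with -1.23 ± 0.29 (adjusted p = 0.0107). Birc3 read 2280, 1040 and 2508, and 1290, 624 and 1646, with -1.12 ± 0.21 (adjusted p = 0.00336). Malt1 (-1.17 ± 0.31), Traf2 (412, 293 and 659, and 236, 197 and 379, a difference of -0.81 ± 0.24) and the kinase Ikbkb (1569, 1063 and 1810, and 1321, 908 and 1554, a difference of -0.56 ± 0.19) completed the 17, and those of Malt1, Traf2 and Ikbkb were each lost without any 1 of the 4 arrays compared. In contrast, 10 of the 18 differences, those of Birc3, Gadd45b, Ikbke, Map3k14, Nfkb2, Nfkbia, Nfkbie, Relb, Tnfaip3 and Traf1, passed whichever of the 12 arrays was left out.

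Ikbke ran the other way. It read 1862, 2020 and 337 in BALB/c and 889, 1297 and 246 in BL6 without LPS, so that both Ro arrays were far below the other 4. RA minus Ro was 2.63 ± 0.27 (6.17-fold higher, adjusted p = 4.6e-04) and Ro minus no retinoid -2.26 ± 0.27 (4.79-fold lower, adjusted p = 0.00307). With LPS it read 2502, 3111 and 969, and 1576, 2275 and 1100, with both Ro arrays again lowest (Ro minus no retinoid -1.22 ± 0.27, adjusted p = 0.0298, lost without any of 3 of those arrays). Averaged over the LPS states, Ro minus no retinoid was -1.74 ± 0.26 for Ikbke (adjusted p = 0.0039), a call kept without any of the 12 arrays.

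**Figure D3:**
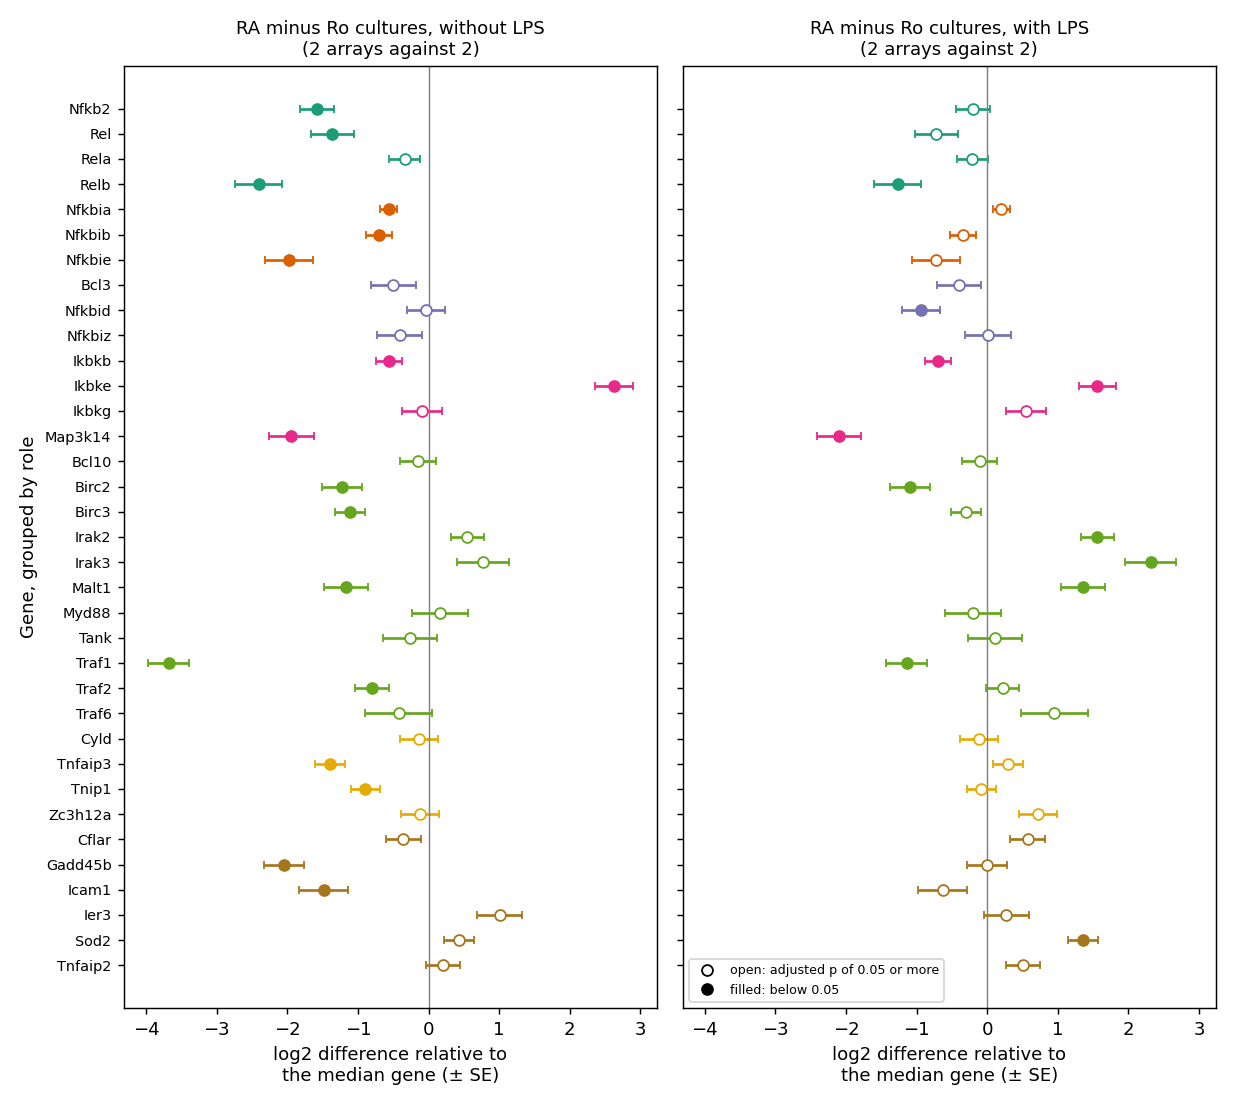
Log2 difference of RA minus Ro cultures for the 35 members without LPS (left panel) and with LPS (right panel), relative to the median gene, with bars of 1 standard error and 2 arrays a group; filled points passed the threshold. In the left panel 17 filled points lie left of 0 and Ikbke right of it, and in the right panel 6 lie left and 5 right.

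Markers of cell type differed in the same comparison. Without LPS, 6 of 14 dendritic cell markers were lower and none higher in RA than in Ro cultures, with summed signals of 37818 to 45932 in RA, 50694 to 52887 without retinoid and 58923 to 62231 in Ro. Of 14 macrophage and monocyte markers 3 were higher and none lower, with sums of 85427 to 88679, 68002 to 72137, and 60834 to 63872. Of 10 granulocyte markers 1 was higher and none lower, with sums of 28334 to 56260 in RA, 16311 to 22800 without retinoid and 11508 to 33715 in Ro. Of 4 mast cell and basophil markers 1 was lower and none higher, with sums of 79.9 to 275, 216 to 317, and 247 to 2558. Averaged over the LPS states, 10 dendritic cell markers were lower and 9 macrophage and monocyte markers higher in RA than in Ro cultures. Of all genes, 5.08% were lower and 2.62% higher without LPS, and 14.4% and 5.36% averaged over the LPS states. The part of these markers in the differences of the pathway genes was not tested.

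With LPS, the difference between RA and Ro cultures ran in both directions. Of the 35 members, 6 were lower and 5 higher in RA, where 11% of all genes were lower and 5.1% higher, and after quantile normalization 4 were lower and 5 higher against 8.42% and 8.25%. The higher ones were the kinase gene Ikbke (1.56 ± 0.27), Irak3 (2.31 ± 0.37), Irak2 (1.56 ± 0.23), Sod2 (1.36 ± 0.22) and Malt1 (1.36 ± 0.31). The lower ones were Map3k14, Relb and Traf1, given above, Birc2 (-1.09 ± 0.29), Nfkbid (-0.94 ± 0.27) and Ikbkb (-0.69 ± 0.19). RA against no retinoid with LPS passed for none of the 35 and for 0% of all genes (limma, 1146 genes and 3 members at an unadjusted p under 0.05). Of the 11 calls, those of Irak2, Irak3, Sod2 and Map3k14 were kept whichever of the 12 arrays was left out.

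With LPS, Ro cultures also differed from those without retinoid. Of the 35 members, 6 were higher and 6 lower in Ro cultures, where 16% of all genes were higher and 5.59% lower. After quantile normalization 4 were higher and 7 lower, against 11.2% and 9.04%. At both scalings the count of higher members alone does not set the pathway genes apart from all genes. Leaving out the BALB/c Ro array with LPS reduced the 12 calls to 4. Among all genes, leaving out single arrays gave from 844 to 3238 calls in this comparison. Without LPS only Traf1 (higher) and Ikbke (lower) passed, against 1.48% higher and 1.21% lower, or 1.56% and 2.33% after quantile normalization.

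Irak3 (IRAK-M, a brake on Toll-like receptor signalling) read 1067, 1382 and 214 in BALB/c and 444, 1058 and 336 in BL6 with LPS, with both Ro arrays lowest. Ro minus no retinoid was -1.60 ± 0.37 (3.03-fold lower, adjusted p = 0.028), lost without either BALB/c array of that comparison. Without LPS it read 415, 318 and 178, and 332, 267 and 204, again lowest in Ro but not past the threshold. Irak2, a kinase-like protein that carries the Toll-like receptor signal on, read 1476, 1605 and 515, and 784, 723 and 330 with LPS, a difference of -1.64 ± 0.23 (3.11-fold lower, adjusted p = 0.00354) that was kept without any of the 12 arrays. Without LPS the Irak2 arrays overlapped, at 769, 896 and 646, and 301, 413 and 349. Sod2 read 10574, 11207 and 4088, and 12135, 13229 and 7341 with LPS, with both Ro arrays lowest (-1.33 ± 0.22, 2.52-fold lower, adjusted p = 0.0084, lost without the BALB/c Ro or the BL6 no-retinoid array). Its signals without LPS were 3334, 2826 and 2290, and 2770, 2889 and 2594. Zc3h12a read 1002, 553 and 432, and 581, 565 and 345 with LPS (-1.24 ± 0.27, lost without any of the 4 arrays compared), and 145, 92.5 and 143, and 114, 91.9 and 99.1 without.

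Nfkbid, the atypical inhibitor IkappaB-NS, known in mice from regulatory T cell and B cell development, read 122, 196 and 596 in BALB/c and 161, 342 and 591 in BL6 with LPS. Ro arrays were the highest and no-retinoid arrays the lowest in both strains, and Ro minus no retinoid was 1.68 ± 0.27 (3.20-fold higher, adjusted p = 0.00129). Without LPS it read 264, 302 and 431, and 391, 418 and 412, with no such order in BL6. At the deposited scaling LPS lowered it without retinoid (adjusted p = 0.0068), a call not kept after quantile normalization, and the relative value was -0.58 ± 0.27. LPS did not change it past the threshold in RA cultures (-0.03 ± 0.27) or Ro cultures (0.82 ± 0.27), although in Ro cultures it passed as higher after quantile normalization. Its interaction of Ro with LPS was 1.45 ± 0.38 (adjusted p = 0.086). Ikbkb read 1438, 1444 and 2475, and 1195, 1328 and 2734 with LPS, with both Ro arrays highest (0.69 ± 0.19, adjusted p = 0.0059, or up to 0.055 without either BL6 array of that comparison). Icam1 read 1578, 1540 and 3266, and 1540, 2864 and 4345 (0.98 ± 0.35), and Birc2 985, 765 and 1438, and 481, 358 and 1197 (0.63 ± 0.29), both lost when single arrays were left out.

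**Figure D4:**
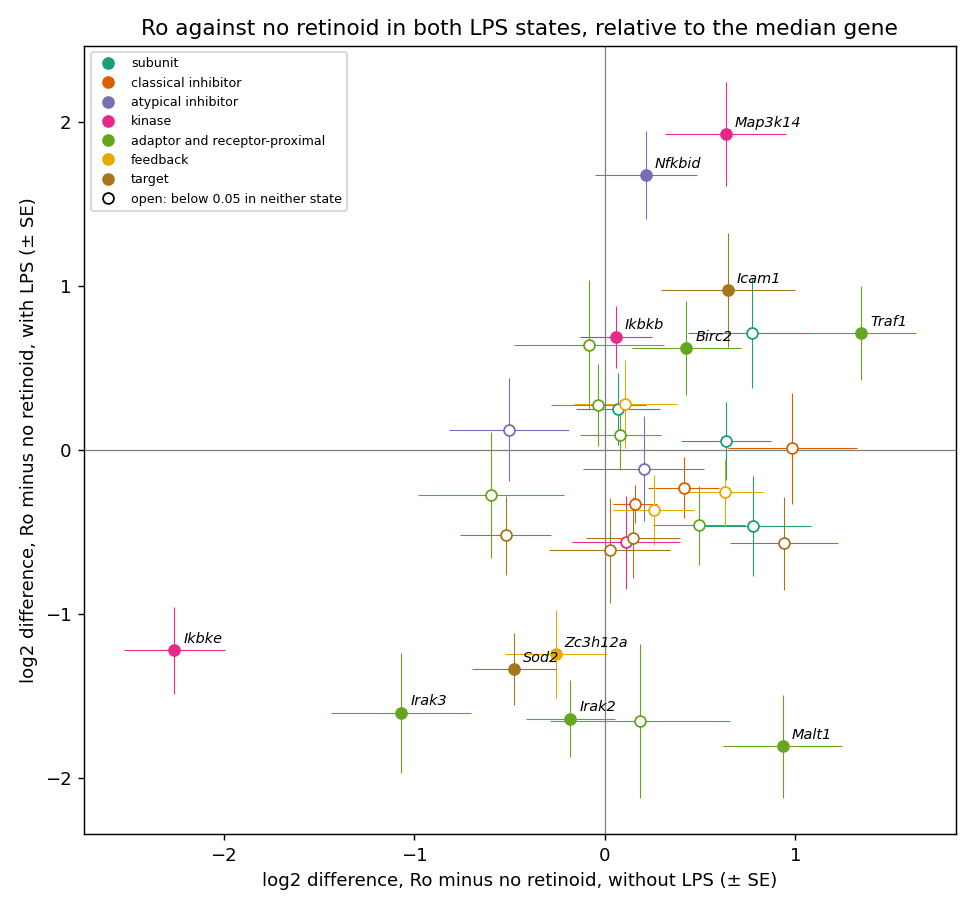
Each point is a member, with the Ro minus no retinoid difference without LPS (horizontal axis) and with LPS (vertical axis), both log2 relative to the median gene with bars of 1 standard error; filled, named points passed the threshold in at least 1 state. Ikbke is the point farthest to the left, Map3k14 and Nfkbid lie at the top, and Malt1 lies to the right of 0 and at the bottom.

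Malt1 was the one member whose response to LPS differed between Ro and no-retinoid cultures by the test of the difference. It read 753, 468 and 1093 in BALB/c and 313, 341 and 1023 in BL6 without LPS, with Ro arrays the highest. With LPS it read 4787, 3991 and 1388, and 4426, 3168 and 1836, with Ro arrays the lowest. LPS raised it by 3.72 ± 0.31 without retinoid and by 3.51 ± 0.31 in RA cultures, and the value in Ro cultures, 0.93 ± 0.31, did not pass (adjusted p = 0.18) except after quantile normalization. The interaction of Ro with LPS was -2.75 ± 0.44 (adjusted p = 0.0317), where 0.644% of all genes passed (1.4% after quantile normalization), and it was lost when any of 8 arrays was left out (adjusted p up to 0.14). The 2 other Malt1 probe sets gave Ro minus no retinoid with LPS of -0.94 and -1.29 at the deposited scaling, against -1.52 for the one used. After quantile normalization Irak2 passed as well.

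Macrophage and monocyte markers moved with Ro in the LPS cultures, 11 of 14 being lower and none higher, with summed signals of 18375 to 25185 in Ro, 59944 to 72429 in RA and 55404 to 62722 without retinoid. Of 14 dendritic cell markers 7 were higher and 1 lower there, with sums of 67450 to 69433 in Ro, 36101 to 47739 in RA and 50607 to 56448 without retinoid. Of 10 granulocyte markers 2 were lower, with sums of 475 to 2332 in Ro, 2386 to 5541 in RA and 1555 to 2595 without retinoid. Of 4 mast cell and basophil markers 1 was higher, with sums of 82.1 to 512, 98.5 to 135, and 54.6 to 82.3. Of all genes, 16% were higher and 5.59% lower with Ro in the LPS cultures. The part of these markers in the Ro differences above was not tested.

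**Figure D5:**
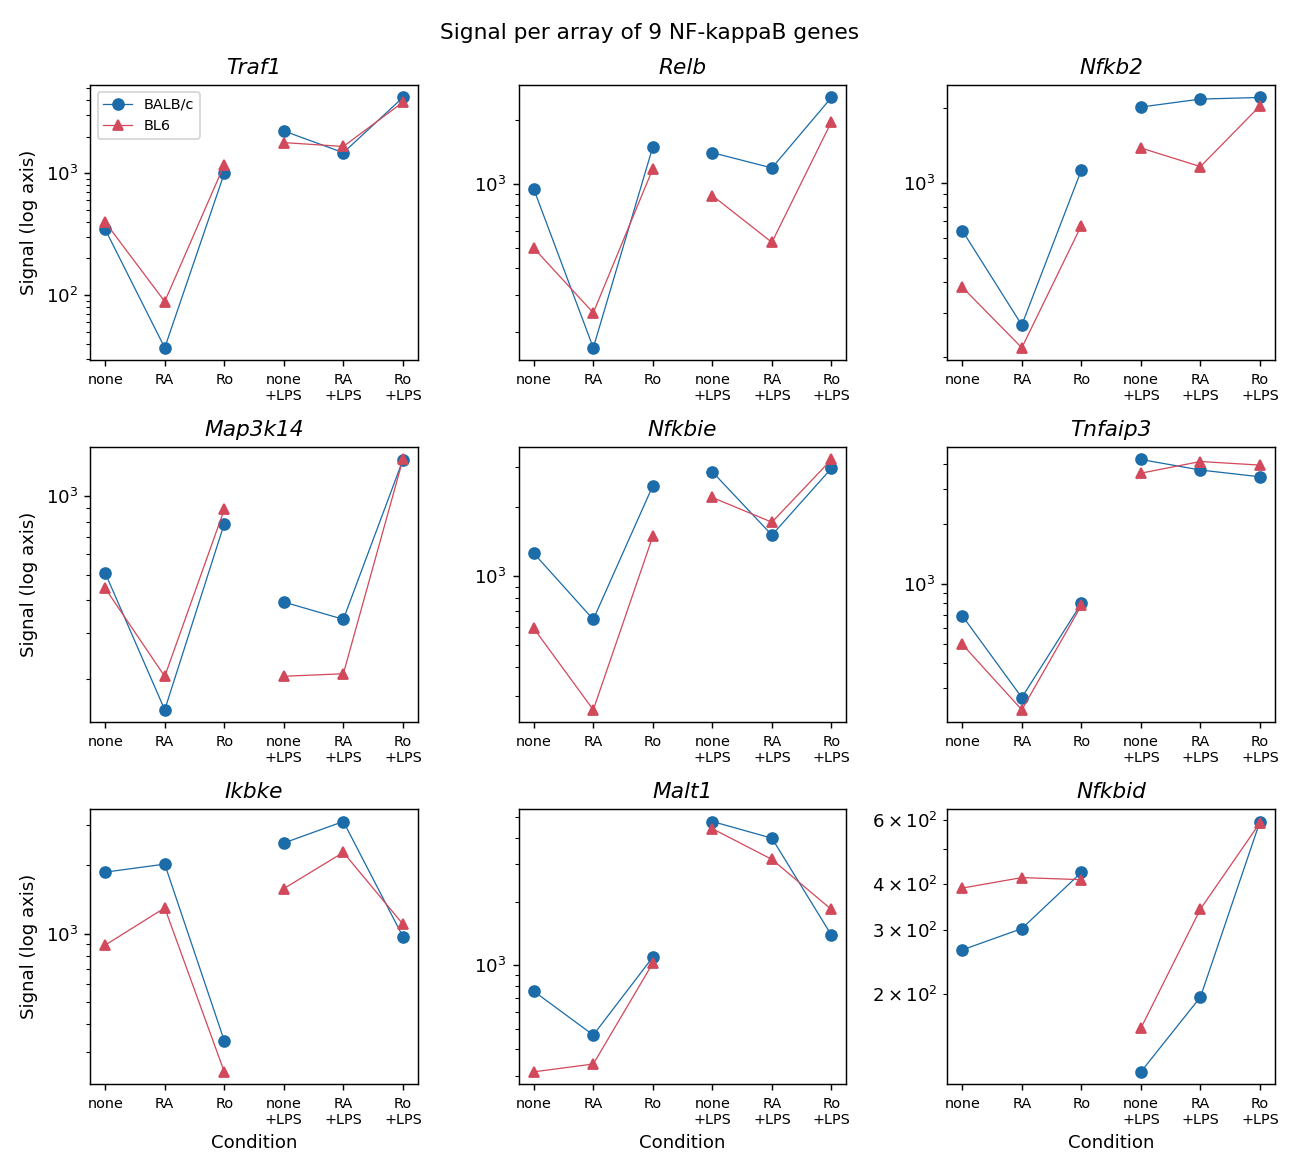
Signal on each array for 9 members, on a logarithmic vertical axis that differs between panels, in the 6 conditions (horizontal axis), with BALB/c as circles and BL6 as triangles, 1 array each; lines join the 3 conditions of 1 strain within an LPS state. Traf1, Relb, Nfkb2, Map3k14, Nfkbie and Tnfaip3 dip in RA without LPS in both strains, and Ikbke and, with LPS, Malt1 drop in Ro.

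Averaged over the LPS states, RA against no retinoid passed for no member and 0% of all genes (limma, 1024 genes and 10 members at an unadjusted p under 0.05, and no member after quantile normalization). The members lay between -1.38 and 0.46, with 27 of 35 below 0. Ro against no retinoid passed for 9, with 6 higher and 3 lower, where 14.1% of all genes were higher and 4.36% lower. The higher ones were Map3k14 (1.28 ± 0.31, adjusted p = 0.0087), Nfkbid (0.94), Icam1 (0.81), Relb (0.74), Birc2 (0.52) and Ikbkb (0.37), and the lower ones Ikbke, Irak3 (-1.34) and Sod2 (-0.91). After quantile normalization 1 was higher, Map3k14, and 4 were lower, against 7.6% and 6.6%. Here too the count of higher members alone does not set the pathway genes apart from all genes. Calls other than Ikbke and Map3k14 were each lost without some of the 12 arrays. RA against Ro, averaged, passed for 17, with 13 lower and 4 higher, where 14.4% were lower and 5.36% higher, and after quantile normalization for 11 and 4 against 8.89% and 8.51%.

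Between the strains, 4 members were higher in BALB/c than in BL6 and none lower, where 11.5% of all genes were higher and 3.88% lower, and after quantile normalization 3 and none against 7.27% and 8.13%. They were Irak2 (0.84 ± 0.21, adjusted p = 0.0087), Rel (0.67 ± 0.21), Bcl10 (0.66 ± 0.15, adjusted p = 0.0052) and Birc3 (0.58 ± 0.17), each higher in 6 of 6 pairs of arrays. Being picked by this comparison favours such an order in advance. The count of higher members alone does not set the pathway genes apart from all genes. Bcl10 read 2219, 2124 and 2564 in BALB/c and 1265, 960 and 1303 in BL6 without LPS, and 1299, 1132 and 1519 against 574, 943 and 1087 with LPS. Birc3 with LPS read 3682, 2696 and 3593 in BALB/c and 1558, 1792 and 2719 in BL6. Rel did not pass after quantile normalization. The interaction of strain with LPS passed for no member and 0.113% of all genes (limma, 1401 genes and 3 members at an unadjusted p under 0.05, and no member after quantile normalization).

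Of 60 further genes of the pathway, listed with earlier results of these data known, 55 were tested. With LPS 18 rose and 22 fell, where 11% of all genes rose and 47.9% fell, and after quantile normalization 26 and 13, where 24.3% and 29% did. Cd40, a TNF receptor family member that feeds the alternative arm, rose by 5.22 ± 0.31, Usp18, an interferon-induced deconjugating enzyme, by 2.83 ± 0.36 and Tnfrsf1b, TNF receptor 2, by 2.46 ± 0.21. The largest falls were those of Tifab (-2.53 ± 0.21), the ubiquitin ligase gene Peli2 (-2.12 ± 0.21) and Pdlim2 (-1.43 ± 0.34), whose product promotes loss of nuclear Rela. Tlr4, the LPS receptor, was lower by -0.58 ± 0.28 and not past after quantile normalization, whereas its co-receptor Cd14 rose by 2.03 ± 0.15 and the kinase gene Map3k8 by 1.65 ± 0.21. Averaged over LPS states, Ro against no retinoid passed for 14, with 9 higher and 5 lower against 14.1% and 4.36% of all genes, but after quantile normalization for 2 higher and 8 lower against 7.6% and 6.6%. Tifab (-1.78 ± 0.26), Tifa (-1.27 ± 0.25) and Tnfrsf1b (-1.23 ± 0.26) were lower at both scalings. RA against Ro without LPS passed for 3, all lower, against 5.08% of all genes. After quantile normalization 2 were lower and 2 higher, against 4.29% and 4.48% of all genes. These counts alone do not set the further genes apart from all genes. Cd40 (-2.66 ± 0.26, adjusted p = 1.9e-04) was lower at both scalings.

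Of the 22 members with several probe sets above the filter, 17 had LPS differences of the same sign in every one. The 5 exceptions were Nfkbib, Ikbkg, Traf6, Birc3 and Cyld. In Traf6 the probe set used and another gave 1.75 and 2.05 at the deposited scaling, but another with a mean signal of 176 gave 0.18, and for Ro minus no retinoid with LPS the values in that order were -1.36, -1.70 and 1.34. In Birc3 the values were 0.84 and -0.04, the second from a probe set of mean signal 177 against 2119. For RA minus Ro without LPS, 18 of the 22 had one sign, and Nfkbiz, Tnfaip2, Traf6 and Sod2 did not.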

How the data were processed

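Gene expression in 12 dendritic cell cultures was measured on 12 single-colour Affymetrix arrays, 1 per condition and strain, from 2 ug of total RNA labelled as biotin cRNA. The deposited values are linear probe set intensities, and MAS5 is named, without a version, per the submitters' processing notes. Their scaling target is not given in the sources used here, and the trimmed means of the arrays ran from 159 to 263. Their number, 2 arrays a condition, limits the precision. Of 45101 probe sets, 34945 were annotated to 1 gene, 932 to several and 9160 to none, and 64 were controls.

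For each gene the probe set of highest mean signal was used. Values were transformed to log2(signal + 16) and fitted with limma 3.58.1 (R 4.3.3, intensity trend, total degrees of freedom 12.2 and 10.9) over all 12 arrays. The averaged comparisons came from a model with separate terms for the retinoid, for LPS and for the strain, the same model with a strain and LPS term gave that interaction, and a model of 6 conditions with strain gave all others. Adjustment was by Benjamini-Hochberg over 12429 genes. The additive constant understates the change of genes of low signal. The fit was tested on simulated data.

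Strain is the replicate number in the labels and stands in every model as a block. Same-strain arrays deviated together in all 15 pairs of conditions (r from 0.304 to 0.699, across genes). Scan dates and slides were not given in the sources used here. Alternatives were 12 other settings and leaving out each of the 12 arrays in turn. Per-array values are given for members past the threshold in a retinoid, interaction or strain comparison and for at least 1 member of each role. Of the other pathway genes, the 3 largest rises and falls with LPS, up to 4 passing with a retinoid, and Tlr4, Cd14 and Map3k8 are named. The members and the lists were chosen with earlier results of these data known.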

Additional observations from a re-analysis of the deposited data

Results flagged for a closer look

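The members' values were checked for a single array far from the others in 70 sets of 6 arrays, those with and those without LPS. Each set mixed retinoid conditions and strains, so the chance rate is only approximate. Chance gives about 1 set in 20, and 2 of the 70 were flagged, which is no more than that rate. Both were the BL6 culture with RA and LPS. Rel read 225 there and the nearest array, BL6 with Ro and LPS, 635, a gap of 0.7081 of the whole range (critical value 0.625). Gadd45b read 5225 there and 7889 on the nearest array, also BL6 with Ro and LPS, a gap of 0.6472 of the range. The rises of both genes with LPS, averaged over retinoids, held without that array. The lower Gadd45b value in RA than in Ro cultures, averaged over LPS states, lost its call without it, as it did without any of 4 other arrays (adjusted p up to 0.10) and after quantile normalization.

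Malt1 was the member whose LPS response differed between Ro and no-retinoid cultures in the test of the difference, with an interaction of -2.755 on the log2 scale and an adjusted p of 0.0317 (limma, 2 arrays a condition). It was higher with Ro than without retinoid in both strains before LPS and lower in both strains with LPS. The call was kept without the BALB/c array with no retinoid and no LPS, without either RA array with LPS, and without the BL6 Ro array with LPS. It was lost without each of the other 8.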

How the results depend on the processing

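Of 164 differences past the threshold among the members, 148 were kept after quantile normalization, 143 after median centring, 161 and 164 with 1 or 64 added in place of 16, 157 with no filter, 163 with the filter on at least 6 arrays, 151 without the intensity trend and 149 with the mean of a gene's probe sets. Without the replicate block 113 of 160 were kept. Of 54 averaged differences 54 were kept in the model of 6 conditions, 31 in BALB/c arrays alone and 27 in BL6 arrays alone, each of which has 6 arrays. The cause of the changes was not tested. Counts of members past the threshold changed by over 1.5 times as follows. RA averaged went from 0 to 1 in the model of 6 conditions. Ro averaged went from 9 to 5 after quantile normalization, 3 without the replicate block, 1 in BALB/c and 0 in BL6. RA against Ro averaged went from 17 to 3 in BALB/c and 6 in BL6. LPS in Ro cultures went from 15 to 25 after quantile normalization and 26 after median centring. RA without LPS went from 1 to 3 after quantile normalization and to 0 after median centring or without the replicate block. Ro without LPS went from 2 to 4 after median centring, 0 without the replicate block and 1 with the mean of probe sets. Without the replicate block, Ro with LPS went from 12 to 5, RA against Ro without LPS from 18 to 11 and RA against Ro with LPS from 11 to 5. The interaction of Ro with LPS went from 1 to 2 after quantile normalization or median centring and to 0 without the intensity trend or the replicate block. The LPS difference of Cyld, called lower, became 0.0402 after median centring, 0.0377 with 1 added, 0.0413 with the filter on 6 arrays and 0.0477 with the mean of probe sets.

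Leaving out each array in turn gave 26 to 28 members for LPS averaged, 0 to 0 for RA averaged, 2 to 10 for Ro averaged (lowest without the BALB/c array with LPS and no retinoid), 13 to 17 for RA against Ro averaged and 3 to 7 for strain. For LPS it gave 19 to 23 without retinoid, 20 to 26 in RA and 11 to 17 in Ro cultures. For RA it gave 0 to 2 without and 0 to 1 with LPS, and for Ro 1 to 3 and 4 to 15 (lowest without the BALB/c Ro array with LPS). RA against Ro gave 11 to 18 without LPS (lowest without the BALB/c RA array) and 6 to 12 with it (lowest without the BALB/c Ro array). The interactions gave 0 to 0 for RA, 0 to 3 for Ro and 0 to 0 for strain. Calls among all genes moved too, from 6626 to 7362 for LPS averaged. For Ro averaged they ran from 861 to 2564 and for RA against Ro averaged from 1505 to 2575. Ro gave 60 to 429 without LPS and 844 to 3238 with it. All-gene calls for RA against Ro were 424 to 1101 without LPS and 1114 to 1984 with it.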
